A study of Homo sapiens with 66 samples.

Results

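The genes described here are 10 amino acid transporters of the plasma membrane, SLC7A11, SLC7A5, SLC3A2, SLC1A5, SLC1A4, SLC38A2, SLC38A1, SLC7A1, SLC6A9 and SLC43A1. They were chosen by symbol and found through their Ensembl identifiers in a table of 20167 genes. The rule uses no measured value, but the members were picked with earlier results of these data known. All 10 were in the table, and all 10 passed the low-count filter in each of the 37 comparisons made. The RNAseq libraries came from 2 established human multiple myeloma lines, AMO1 and L363-CFZr, the latter labelled as carfilzomib-resistant L363 cells. AMO1 cells carried no resistance label and were exposed for 6 h or 24 h to DMSO, NCP22, NCP26, halofuginone (HFG, MAZ1392), halofuginol (MAZ1805) or carfilzomib (CFZ), and L363-CFZr cells to the same agents except CFZ. The 4 compounds other than CFZ were given at 1 µM, and the labels give no dose for CFZ, an inhibitor of the proteasome. Each of the 22 groups had 3 replicates, 66 libraries in all. The study names biological triplicates for its experiments in general and triplicate conditions for RNAseq, and neither this nor the labels say whether the replicates were separate cultures, so p-values measure the spread between these libraries, which may be technical.

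NCP26 and HFG block prolyl-tRNA synthetase, the enzyme that charges tRNA with proline. Halofuginol is the analogue of HFG in which the ketone is reduced to an alcohol. NCP22 is the compound from which NCP26 was developed. In the study's assay NCP22 and halofuginol also bind the enzyme, and the study describes their potencies as lower or absent. Neither is therefore a control without action on the enzyme. Amino acid transporters work in functional groups. SLC7A11 and SLC7A5 are light chains that need the heavy chain SLC3A2 to reach the membrane, SLC1A5 and SLC1A4 exchange small neutral amino acids, SLC38A2 and SLC38A1 import neutral amino acids together with sodium, SLC7A1 carries cationic amino acids, SLC6A9 carries glycine, and SLC43A1 carries large neutral amino acids. Uncharged tRNA activates the kinase GCN2, phosphorylation of eIF2α then favours translation of ATF4, and ATF4 binds C/EBP-ATF response elements in genes of amino acid uptake and synthesis. Several transporters, SLC7A11 above all, are also known targets of NRF2, which binds antioxidant response elements.

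Total counts ran from 1666325 to 5761682 per AMO1 library (median 3009496) and from 2487872 to 6596543 per L363-CFZr library (median 3562784.5), over reads assigned to the 20167 genes. Plasma cell markers, among them SDC1 and TNFRSF17, were above 5 CPM (counts scaled to a common library total) on average in both lines for 10 of 10 genes, and their summed level ran from 4752 to 10663 CPM. Markers of T cells, myeloid, epithelial, fibroblast and erythroid cells summed to at most 10.04 CPM per list in a library. The library least like the others of its group was L363-CFZr DMSO 24 h replicate 2, with a mean correlation of 0.921 over 10164 genes, followed by AMO1 CFZ 24 h replicate 2 with 0.930, and every other library was at 0.955 or above. Many results that rest on these libraries are given with and without them, and others only with them. Sample numbers in the column names recur in 3 sets. AMO1 libraries of 6 h all carried numbers of one set, whereas at 24 h the DMSO libraries and CFZ replicate 1 carried numbers of that set and the others those of the next. L363-CFZr DMSO and NCP26 libraries of 6 h differed likewise in set from the HFG and halofuginol libraries of that time, and the 24 h libraries shared one set. Where set and treatment coincide they cannot be told apart.

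The positions of the members in GENCODE v44 (GRCh38) were these. SLC7A11 lies at chr4:138164097-138242349 (minus strand), SLC7A5 lies at chr16:87830023-87869507 (minus strand), SLC3A2 lies at chr11:62856004-62888880 (plus strand), SLC1A5 lies at chr19:46774883-46788594 (minus strand), SLC1A4 lies at chr2:64988477-65023865 (plus strand). SLC38A2 lies at chr12:46358188-46372773 (minus strand), SLC38A1 lies at chr12:46183063-46270017 (minus strand), SLC7A1 lies at chr13:29509414-29595688 (minus strand), SLC6A9 lies at chr1:43991500-44031467 (minus strand), SLC43A1 lies at chr11:57484534-57515780 (minus strand). Reads were assigned to transcripts by shared 31-mers, so counts of genes that share sequence with another transcript are less certain. SLC1A5 shared 22.78% of its 31-mers, almost all with a long non-coding RNA (ENSG00000275719) that has no row in the count table, SLC7A11 shared 12.16%, mostly with its antisense RNA, SLC7A5 shared 11.37%, and SLC6A9 shared 6.04%, all with its neighbour CCDC24. The other 6 members shared at most 2.34%.

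Promoters were searched for the elements of both factors because ATF4 and NRF2 are known regulators of several of these transporters. RefSeq windows of 300 bases (GRCh38.p14, from 250 before to 50 after an annotated start) were held for 9 of the 10 members, 16 windows in all, and none for SLC7A11. The core of the C/EBP-ATF response element, TGATGNAA, was found on either strand in 5 windows of 5 members, and in 3.62% of 35116 windows of all genes. The core of the antioxidant response element, TGACNNNGC, was found in 4 windows of 4 members, and in 13.35% of all windows. The windows of SLC38A2, SLC6A9 and SLC43A1 held neither sequence, which says only that these letters were not there. A match is a description and not a binding site. Each match is given with its flanking bases, 5′ to 3′ on the strand of the gene, with the match in capitals.
SLC3A2 C/EBP-ATF core, opposite strand, chr11:62881726-62881748: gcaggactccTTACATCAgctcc
SLC1A5 C/EBP-ATF core, chr19:46784894-46784921: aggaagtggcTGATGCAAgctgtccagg
SLC1A4 C/EBP-ATF core, opposite strand, chr2:64989382-64989409: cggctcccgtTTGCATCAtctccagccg
SLC38A1 C/EBP-ATF core, chr12:46266503-46266530: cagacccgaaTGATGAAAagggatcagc
SLC7A1 C/EBP-ATF core, chr13:29595664-29595691: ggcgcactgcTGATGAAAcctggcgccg
SLC7A5 antioxidant core, chr16:87869491-87869519: gcggggttccTGACGCAGCtgcgggcggc
SLC3A2 antioxidant core, chr11:62881652-62881680: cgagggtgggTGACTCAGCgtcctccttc
SLC1A5 antioxidant core, opposite strand, chr19:46787386-46787414: cctggatcttGCGAGGTCAgctcccgctc
SLC7A1 antioxidant core, chr13:29595755-29595783: tgcccggcggTGACGCGGCcgagcgggcc
The SLC3A2 and SLC1A4 cores read tgatgtaa and tgatgcaa on the other strand, and the one in SLC1A4 began 7 bases before the start. The SLC38A1 and SLC7A1 cores had the same 8 letters and began 4 bases before and 7 bases after the start. SLC3A2 carried both elements in one window and SLC7A1 in its only window, while in SLC1A5 they lay in different windows.

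Without a compound the members covered a wide range of levels. Levels of different genes were compared per kilobase of the canonical transcript. In AMO1 DMSO libraries of 6 h, SLC3A2 was highest at 154 ± 5.61 CPM per kb (SD, n = 3), followed by SLC1A5 (97.4 ± 7.58), SLC7A5 (84.0 ± 5.70), SLC38A2 (68.6 ± 8.32) and SLC38A1 (48.1 ± 4.91). SLC7A1 (31.6 ± 0.61 CPM per kb), SLC1A4 (27.6 ± 0.52), SLC43A1 (14.996 ± 2.63), SLC6A9 (5.34 ± 1.24) and SLC7A11 (1.05 ± 0.23) followed. SLC1A5 and SLC7A5 were the only neighbours in this order whose libraries overlapped. SLC7A11, the cystine importer that supplies cysteine for glutathione, was the lowest member in all 4 DMSO groups, and SLC3A2 was the highest in 3 of them. In L363-CFZr cells at 24 h SLC1A5 stood at 66.4 ± 0.29 and SLC3A2 at 64.5 ± 7.36 CPM per kb, with overlapping libraries. SLC3A2 was at 105.7 CPM in replicate 2, the library least like its group, against 130.5 and 128.8 CPM in replicates 1 and 3. SLC1A5 was at 190.4, 191.9 and 191.9 CPM. This order and overlap rest on replicate 2, and without it SLC3A2 was the highest member there too. The plot of all libraries shows each gene's CPM values after TMM scaling.

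**Figure D1:**
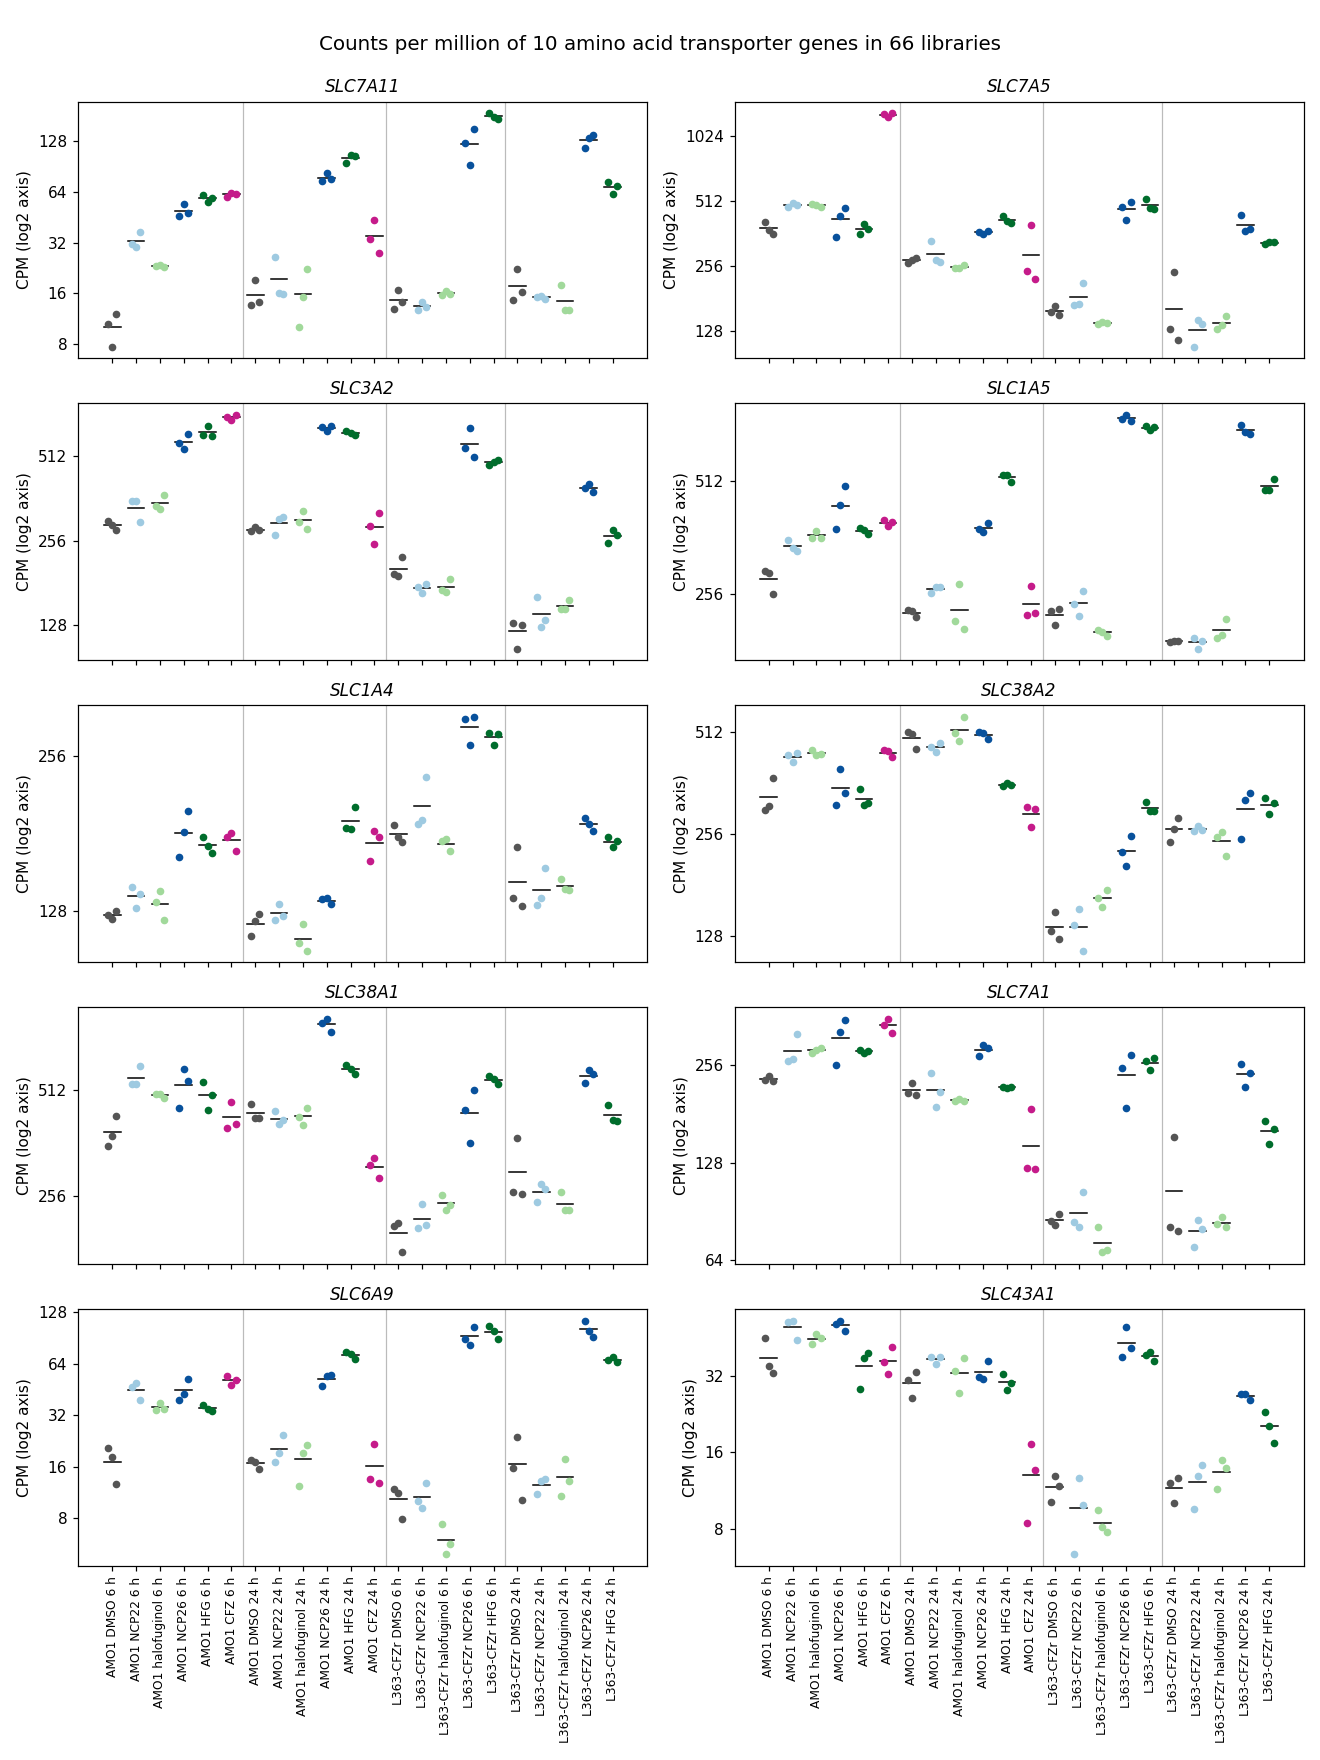
CPM of the 10 transporters (log2 axis, one panel per gene) in 66 libraries of 22 groups, with points for libraries, bars for means over 3 replicates, and grey lines between lines and times. SLC7A11 and SLC6A9 libraries with NCP26 or HFG lie above all DMSO libraries of the same line and time.

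At 6 h in AMO1 cells, NCP26 raised 8 of 10 members and HFG 7, whereas 18.1% and 27.7% of all tested genes were called higher and 19.2% and 26.6% lower. A gene was called at a Benjamini-Hochberg adjusted p under 0.05 by edgeR's quasi-likelihood test over all genes of the comparison. The median log2 fold change of the members was 0.49 with NCP26 and 0.42 with HFG, against -0.01 and 0.01 over all tested genes. Both compounds in L363-CFZr cells at 6 h raised 10 of 10 members, with medians of 1.55 and 1.65, against 0.01 and -0.0022 over all genes. Of all tested genes there, NCP26 raised 9.81% and lowered 8.99%, and HFG raised 26.9% and lowered 27.5%. A fit that included the sets as a factor also called all 10 higher with HFG. That factor was estimated from the NCP22 libraries alone, the only group of this line and time with libraries of different sets. All treatments of a line and time share the same 3 DMSO libraries. In these bulk samples fewer cells and less RNA per cell cannot be told apart. For one gene, exact permutation of 3 against 3 libraries cannot give a p below 0.10.

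At 24 h in AMO1 cells NCP26 raised 7 members, with 29.8% of all genes higher and 30.9% lower, and HFG raised 7 and lowered 1, with 28.5% and 30.5%. Medians of the members were 0.59 and 0.64, against 0.01 and -0.0019 over all genes. DMSO and compound libraries differ in set at this time, and with the set as a factor SLC7A11, SLC3A2, SLC1A5, SLC38A1 and SLC6A9 were called higher with both compounds and SLC1A4 with HFG. SLC7A5 and SLC7A1 were then at 0.09 and 0.09 with NCP26, SLC7A5 and SLC38A2 at 0.27 and -0.35 with HFG, and none of these was called. The set factor was estimated here from the CFZ libraries alone, the only group of this line and time with libraries of different sets. It therefore corrects for set only as far as the CFZ libraries show it. Of these, CFZ replicate 2 was the least like its group and held more SLC7A5 and SLC7A1 than replicates 1 and 3. In L363-CFZr cells at 24 h NCP26 raised 8 members and HFG 4, with 2.71% and 0.592% of all genes higher and 4.38% and 0.573% lower. Medians were 1.26 and 0.90, against -0.002 and -0.02. Without DMSO replicate 2, the library least like its group, NCP26 raised 9 members and 13.1% of all genes, and HFG raised 10 members and 9.34% of all genes. The NCP26 count was 5 without DMSO replicate 1 or 3 or NCP26 replicate 1 or 3 and 4 without NCP26 replicate 2. The HFG count was 2 without DMSO replicate 1, 0 without HFG replicate 1 or 3 and 1 without HFG replicate 2. Over the 8 comparisons of NCP26 or HFG with DMSO, SLC7A11, SLC3A2, SLC1A5 and SLC6A9 were called higher in 8, SLC38A1 in 7, SLC7A1 in 6, SLC7A5 and SLC1A4 in 5, SLC43A1 in 4 and SLC38A2 in 2.

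**Figure D2:**
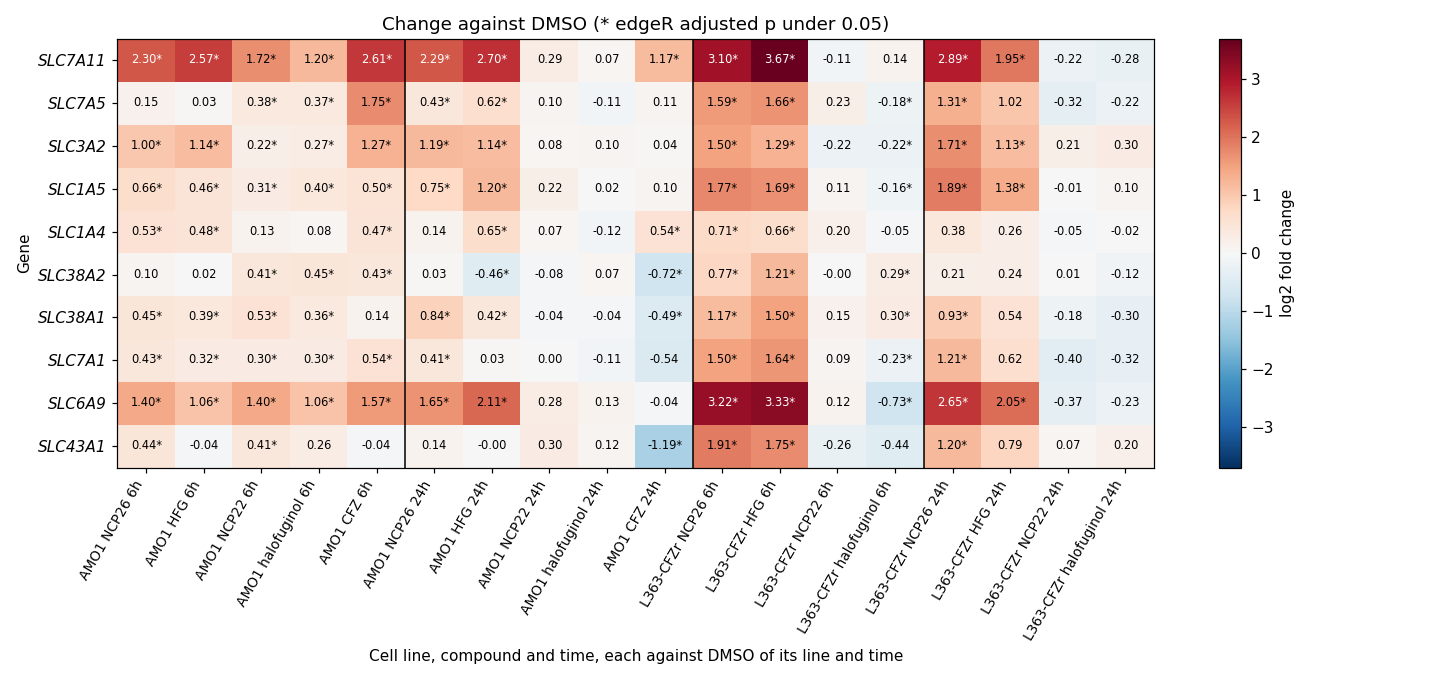
Log2 fold change against DMSO of the same line and time for the 10 transporters under each compound, from edgeR fits of 3 against 3 libraries. Colours and printed values give the change, and asterisks mark an edgeR adjusted p under 0.05. With NCP26 and HFG, SLC7A11 lies between 1.95 and 3.67 and SLC38A2 between -0.46 and 1.21.

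The light chain SLC7A11 showed the largest log2 fold change of the 10 members with NCP26 and HFG in AMO1 cells at both times. SLC7A11 in the 3 libraries of AMO1 cells at 6 h was at 10.6, 7.69 and 12.03 CPM with DMSO and 46.2, 54.6 and 47.7 CPM with NCP26. With HFG it was at 61.3, 56.0 and 58.5 CPM. The groups did not overlap, and the lowest treated library was several times above the highest DMSO library. The log2 fold change was 2.30 ± 0.17 (SE, edgeR adjusted p = 1.73e-06) for NCP26 and 2.57 ± 0.15 (SE, edgeR adjusted p = 1.93e-09) for HFG. DMSO libraries of L363-CFZr cells held at 6 h 12.8, 16.7 and 14.2 CPM, NCP26 libraries 125, 92.3 and 151 CPM and HFG libraries 188, 179 and 173 CPM. Replicate 2 with NCP26 was the lowest of its group and still lay far above DMSO, and the changes were 3.10 ± 0.20 (SE, edgeR adjusted p = 4.72e-06) and 3.67 ± 0.10 (SE, edgeR adjusted p = 9.21e-19). At 24 h the level was highest with HFG in AMO1 cells (95.6, 106 and 105 CPM, against 13.6, 19.1 and 14.2 CPM with DMSO) and with NCP26 in L363-CFZr cells (117, 134 and 139 CPM, against 14.6, 22.4 and 16.4 CPM). HFG libraries of L363-CFZr cells at 24 h held 73.0, 62.2 and 69.1 CPM, all above DMSO and all below NCP26.

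SLC7A5, the light chain that imports leucine and other large neutral amino acids in exchange for glutamine, differed between the lines. SLC7A5 in the 3 libraries of AMO1 cells at 6 h was at 411, 377 and 359.9 CPM with DMSO and 351, 436 and 477 CPM with NCP26. With HFG it was at 362.6, 403 and 380.1 CPM. DMSO and treated libraries overlapped, and the log2 fold changes of 0.15 ± 0.12 (SE, edgeR adjusted p = 0.35) and 0.03 ± 0.071 (SE, edgeR adjusted p = 0.71) were not called. An offset for the GC content of transcripts gave 0.40 for NCP26 and 0.28 for HFG, and both were then called higher. SLC7A5 in L363-CFZr cells at 6 h went from 157, 167 and 152 CPM with DMSO to 483, 419 and 508 CPM with NCP26 and 523, 475 and 472 CPM with HFG. These groups were clearly apart, with changes of 1.59 ± 0.11 (SE, edgeR adjusted p = 7.02e-06) and 1.66 ± 0.065 (SE, edgeR adjusted p = 5.23e-16). At 24 h in AMO1 cells SLC7A5 rose by 0.43 with NCP26 and 0.62 with HFG, calls that were lost with the set term. That term rested on the CFZ libraries, whose replicate 2 held 397.9 CPM against 242.8 and 223.0 CPM in replicates 1 and 3. Libraries with NCP22, of the same set as NCP26, were at 0.10 against DMSO without the term and -0.26 with it, neither called. With the GC offset, NCP26 exceeded NCP22 by 0.54 and HFG exceeded halofuginol by 0.82 at 24 h, both called and within one set. Mean levels without the offset were 368 CPM with NCP26 and 291 CPM with NCP22, and 419 CPM with HFG and 254 CPM with halofuginol. L363-CFZr DMSO replicate 2 held 241.2 CPM at 24 h, against 130.5 and 116.3 CPM in the other DMSO libraries, and the HFG change went from 1.02 ± 0.27 (SE, edgeR adjusted p = 0.13) to 1.42 ± 0.059 (SE, edgeR adjusted p = 6.02e-15) without it.

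The heavy chain SLC3A2 rose in every comparison of NCP26 or HFG with DMSO. SLC3A2 in the 3 libraries of AMO1 cells at 6 h was at 301, 290.4 and 280.3 CPM with DMSO and 570.4, 546 and 616 CPM with NCP26. With HFG it was at 609, 659 and 607 CPM. No treated library overlapped DMSO, with log2 fold changes of 1.00 ± 0.10 (SE, edgeR adjusted p = 1.60e-05) and 1.14 ± 0.066 (SE, edgeR adjusted p = 1.82e-09). It rose in L363-CFZr cells at 6 h from 195, 192 and 223 CPM to 549.7, 644 and 511 CPM with NCP26 and 478, 489 and 498 CPM with HFG. The changes were 1.5002 and 1.29 there, and 1.19 and 1.14 in AMO1 cells at 24 h. SLC3A2 had the narrowest range of the 4 members called in all 8 comparisons, from 1.00 to 1.71.

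Among the neutral exchangers, SLC1A5, the glutamine transporter also named ASCT2, rose in all 8 comparisons. SLC1A5 in the 3 libraries of AMO1 cells at 6 h was at 295, 291 and 256 CPM with DMSO and 381, 442 and 498 CPM with NCP26. With HFG it was at 384, 379 and 369.8 CPM. All treated libraries lay above DMSO, by 0.66 ± 0.12 (SE, edgeR adjusted p = 9.10e-04) and 0.46 ± 0.072 (SE, edgeR adjusted p = 6.00e-05) on the log2 scale. The L363-CFZr DMSO libraries of 6 h held 231, 211 and 234 CPM, and those with NCP26 754, 771 and 745 CPM, a change of 1.77 ± 0.10 (SE, edgeR adjusted p = 1.27e-06). No treated library came near the DMSO group. SLC1A4, which carries alanine, serine and cysteine, moved less. It rose by 0.53 and 0.48 in AMO1 cells and by 0.71 and 0.66 in L363-CFZr cells at 6 h. At 24 h NCP26 and HFG gave 1 call, with HFG in AMO1 cells (186, 184 and 203 CPM against 115, 123 and 126 CPM), with a change of 0.65 ± 0.066 (SE, edgeR adjusted p = 1.24e-07). NCP26 gave 0.14 ± 0.065 (SE, edgeR adjusted p = 0.072) there, and 0.18, called, with the GC offset. With the set term the NCP26 value was -0.02, not called. The L363-CFZr values of 0.38 and 0.26 at 24 h became 0.51 and 0.39, both called, without DMSO replicate 2.

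The sodium-coupled carriers went apart in AMO1 cells. SLC38A2, also named SNAT2 and known as a transporter induced by amino acid shortage, was at 302, 310.0 and 375 CPM with DMSO, 313, 398 and 339 CPM with NCP26 and 348, 312 and 316 CPM with HFG at 6 h. The groups overlapped and the changes of 0.10 ± 0.12 (SE, edgeR adjusted p = 0.55) and 0.02 ± 0.086 (SE, edgeR adjusted p = 0.86) were not called. After SLC7A11 (35.4%), SLC38A2 has the transcript lowest in GC among the members (37.41%), and with the GC offset its HFG value turned to -0.30 and was called lower, while NCP26 gave -0.19, not called. At 24 h HFG libraries held 354, 361 and 358 CPM, all below the DMSO libraries with 511, 507 and 457 CPM, and the change of -0.46 ± 0.052 (SE, edgeR adjusted p = 5.03e-07) was called, though not with the set term. NCP26 libraries held 513, 508 and 488 CPM, a difference of 0.03 ± 0.046 (SE, edgeR adjusted p = 0.57). This difference turned to -0.14 with the GC offset and was then called lower, whereas with the set term it was 0.14, not called. SLC38A2 in L363-CFZr cells rose at 6 h from 132, 151 and 125 CPM to 227, 206 and 252 CPM with NCP26 and 319, 299.9 and 300.1 CPM with HFG. The changes were 0.77 ± 0.12 (SE, edgeR adjusted p = 0.0017) and 1.21 ± 0.071 (SE, edgeR adjusted p = 1.24e-12), with no overlap. By 24 h the L363-CFZr values were 0.21 and 0.24, neither called. Without DMSO replicate 2 they were 0.20, not called, and 0.25, called higher.

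SLC38A1, the other sodium-coupled carrier, also named SNAT1, was called higher in 7 of the 8 comparisons. Its call with NCP26 in AMO1 cells at 6 h was lost without DMSO replicate 1 or 2 and with the GC offset (0.27). At 24 h in AMO1 cells it was at 470.0, 428 and 426 CPM with DMSO, 799, 820.5 and 754 CPM with NCP26 and 607, 591 and 572 CPM with HFG. The 3 groups did not overlap, and the changes were 0.84 ± 0.045 (SE, edgeR adjusted p = 3.42e-16) and 0.42 ± 0.050 (SE, edgeR adjusted p = 1.10e-06). In L363-CFZr cells it rose by 1.17 and 1.498 at 6 h and by 0.93 with NCP26 at 24 h, whereas HFG gave 0.54 ± 0.17 (SE, edgeR adjusted p = 0.19) at that time. Without DMSO replicate 2, which held 374.5 CPM against 262.2 and 259.6 CPM in the others, this value was 0.74 ± 0.058 (SE, edgeR adjusted p = 8.30e-10).

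SLC7A1, the arginine and lysine carrier CAT1, rose in AMO1 cells at 6 h, by 0.43 and 0.32, and NCP26 replicate 1 (256.6 CPM) lay closest to DMSO (231, 237 and 228 CPM). The NCP26 call was lost without DMSO replicate 1 or NCP26 replicate 3. Among L363-CFZr libraries of 6 h those with DMSO held 84.4, 82.4 and 88.8 CPM, the NCP26 libraries 250.1, 188 and 274 CPM and the HFG libraries 263, 246 and 268 CPM. These groups were well apart, by 1.501 ± 0.14 (SE, edgeR adjusted p = 7.06e-05) and 1.64 ± 0.069 (SE, edgeR adjusted p = 1.82e-15). At 24 h AMO1 cells with HFG were at 219, 218 and 218 CPM, within the range of DMSO (210.3, 225 and 206 CPM). In L363-CFZr DMSO libraries of 24 h replicate 2 stood at 153.8 CPM against 81.2 and 79.0 CPM, and the HFG change of 0.62 ± 0.26 (SE, edgeR adjusted p = 0.30) became 1.01 ± 0.075 (SE, edgeR adjusted p = 4.11e-10) without it.

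SLC6A9, the glycine transporter GLYT1, rose in all 8 comparisons from a low level. SLC6A9 in the 3 libraries of AMO1 cells at 6 h was at 20.5, 18.2 and 12.7 CPM with DMSO and 39.5, 42.9 and 52.3 CPM with NCP26. With HFG it was at 36.8, 34.9 and 33.8 CPM. The groups did not overlap, with changes of 1.40 ± 0.18 (SE, edgeR adjusted p = 1.02e-04) and 1.06 ± 0.15 (SE, edgeR adjusted p = 3.09e-05). SLC6A9 in L363-CFZr cells at 6 h rose from 11.8, 11.2 and 7.94 CPM to 89.7, 82.7 and 105 CPM with NCP26 and 107, 99.2 and 89.5 CPM with HFG. The changes were 3.22 ± 0.17 (SE, edgeR adjusted p = 1.27e-06) and 3.33 ± 0.13 (SE, edgeR adjusted p = 9.18e-16), against 3.10 and 3.67 for SLC7A11. At 24 h SLC6A9 rose by 1.65 and 2.11 in AMO1 cells and by 2.65 and 2.05 in L363-CFZr cells. Without DMSO replicate 2 the L363-CFZr values were 2.98 and 2.38. SLC43A1, the large neutral amino acid carrier LAT3, which needs no heavy chain, was called higher in AMO1 cells with NCP26 at 6 h (0.44 ± 0.14 SE, edgeR adjusted p = 0.024) and not with NCP26 at 24 h or with HFG. The call was lost without DMSO replicate 2 or 3 or NCP26 replicate 2. In L363-CFZr cells it went from 10.2, 12.9 and 11.8 CPM to 38.3, 50.1 and 41.2 CPM with NCP26 and 38.9, 39.9 and 36.7 CPM with HFG at 6 h. Both groups were above every DMSO library, by 1.91 ± 0.16 (SE, edgeR adjusted p = 3.20e-05) and 1.75 ± 0.14 (SE, edgeR adjusted p = 2.86e-10).

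NCP22 and halofuginol raised most members in AMO1 cells at 6 h, and none was called at 24 h. At 6 h NCP22 raised 9 members, with 13.5% of all genes called, and halofuginol 8, with 3.62%. Medians were 0.39 and 0.36, against -0.01 and -0.01. SLC7A11 was at 31.5, 30.3 and 37.0 CPM with NCP22 and 23.2, 23.4 and 22.8 CPM with halofuginol, all above DMSO, and rose by 1.72 ± 0.17 (SE, edgeR adjusted p = 6.05e-07) and 1.203 ± 0.18 (SE, edgeR adjusted p = 6.73e-04). SLC6A9 was at 46.8, 49.2 and 39.3 and 34.2, 37.9 and 34.7 CPM, changes of 1.40 ± 0.15 (SE, edgeR adjusted p = 1.86e-06) and 1.06 ± 0.15 (SE, edgeR adjusted p = 3.29e-04). SLC7A5 and SLC38A2, which NCP26 and HFG left without a call at this time, rose by 0.38 and 0.41 with NCP22 and by 0.37 and 0.45 with halofuginol. SLC1A4 was called with neither compound and SLC43A1 not with halofuginol. The SLC43A1 call with NCP22 was lost without DMSO replicate 2 or 3 or NCP22 replicate 1 or 2. With a library left out in turn, the SLC3A2 call held in 1 of 6 fits with NCP22 and 2 of 6 with halofuginol. The SLC7A1 call held in 5 of 6 and 3 of 6. Called libraries lay above every DMSO library except for SLC3A2 and SLC43A1 with NCP22, which overlapped DMSO. In one fit of all AMO1 groups 5 members were called with each compound.

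At 24 h in AMO1 cells edgeR called 0 members with NCP22 and 0 with halofuginol, and 0% and 0.183% of all genes, and the members had medians of 0.09 and 0.04 against 0.0019 and 0.00043. At an unadjusted p under 0.05 there were 2 members with NCP22, SLC1A5 and SLC43A1, and 0 with halofuginol, and DESeq2 called 0 with either. Without NCP22 replicate 1 edgeR called 1 member, SLC1A5. In L363-CFZr cells NCP22 gave 0 calls at 6 h and at 24 h, with 0% and 0% of all genes, 3 (SLC7A5, SLC3A2 and SLC1A4) and 0 members at an unadjusted p under 0.05 and 0 by DESeq2 at both times. Medians of the members were 0.10 and -0.11, against -0.0012 and -0.01. Over all genes the unadjusted p was under 0.05 for 638 with NCP22 and 1129 with halofuginol at 24 h in AMO1 cells and for 666 and 213 in L363-CFZr cells at 6 h and 24 h. Halofuginol in L363-CFZr cells at 24 h gave 0 calls among the members by edgeR and DESeq2 and 0% of all genes, with 0 members and 410 genes at an unadjusted p under 0.05 and medians of -0.17 and -0.01. Without DMSO replicate 2 both compounds again gave 0 calls at 24 h in L363-CFZr cells. The medians of the members there changed sign, to 0.006 with NCP22 and 0.11 with halofuginol, against 0.004 and 0.0013 over all genes.

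Halofuginol at 6 h was the one treatment of L363-CFZr cells that lowered members. edgeR called SLC38A2 (0.29) and SLC38A1 (0.30) higher and SLC7A5 (-0.18), SLC3A2 (-0.22), SLC1A5 (-0.16), SLC7A1 (-0.23) and SLC6A9 (-0.73) lower, with 25.8% of all genes called and medians of -0.17 and -0.01. SLC6A9 was at 7.40, 4.92 and 5.63 CPM against 11.8, 11.2 and 7.94 CPM, without overlap. These DMSO and halofuginol libraries are of different sets, and 0 members were called with a term for the set, 0 with the GC offset, 0 in one fit of all groups and 3 by DESeq2. With the GC offset SLC7A5 (0.05), SLC1A5 (0.08) and SLC38A2 (-0.01) turned sign. Leaving out a library lowered the count to 4 without halofuginol replicate 1 or DMSO replicate 3, 3 without halofuginol replicate 3 or DMSO replicate 1, and 2 without halofuginol replicate 2.

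Direct comparisons at 1 µM were made for 12 pairs, NCP26 with NCP22, HFG with halofuginol and NCP26 with HFG in each line and time, and p-values were adjusted over the genes of all 12. In AMO1 cells at 6 h, NCP26 stood above NCP22 in 4 members, with 26.4% of all genes called. These were SLC7A11 (0.62 ± 0.12), SLC3A2 (0.81 ± 0.10), SLC1A5 (0.38 ± 0.10) and SLC1A4 (0.43 ± 0.10). HFG stood above halofuginol, its reduced analogue, in SLC7A11 (1.36 ± 0.10), SLC3A2 (0.87 ± 0.056) and SLC1A4 (0.39 ± 0.065) and below it in SLC7A5 (-0.34 ± 0.051) and SLC38A2 (-0.43 ± 0.053), with 47.7% of all genes called. SLC6A9 was called in neither pair at 6 h, and a p that misses the threshold does not show that compounds act alike. Its difference was 0.02 (95% interval -0.26 to 0.31) for NCP26 against NCP22 and -0.01 (-0.23 to 0.21) for HFG against halofuginol. SLC1A5, SLC38A1 and SLC7A1 likewise gave 0.06 (-0.04 to 0.16), 0.02 (-0.10 to 0.15) and 0.01 (-0.09 to 0.12) for HFG against halofuginol. Of these, SLC1A5 was called with the GC offset (0.17).

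In L363-CFZr cells at 6 h both pairs separated all 10 members. NCP26 was higher than NCP22 by 0.51 (SLC1A4) to 3.21 (SLC7A11), with 23.3% of all genes called. HFG was higher than halofuginol by 0.71 (SLC1A4) to 4.05 (SLC6A9), with 44.1% called. HFG and halofuginol libraries are of one set at this time, and SLC6A9 was at 107, 99.2 and 89.5 CPM with HFG and 7.40, 4.92 and 5.63 CPM with halofuginol. Median differences over the members were 1.53 and 1.85, against 0.01 and 0.01 over all genes. In AMO1 cells at 6 h these medians were 0.11 and 0.02, against 0.01 and 0.01.

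At 24 h the compounds of each pair were of the same set in both lines. NCP26 exceeded NCP22 in 7 members in AMO1 cells and 9 in L363-CFZr cells, with 48% and 33.2% of all genes called. SLC1A4 (0.09, 95% interval -0.06 to 0.24), SLC38A2 (0.14, 0.01 to 0.27) and SLC43A1 (-0.14, -0.39 to 0.11) were not called in AMO1 cells. In L363-CFZr cells only SLC38A2 was not called (0.19, -0.03 to 0.41). HFG exceeded halofuginol in 7 members in AMO1 cells, and SLC38A2 was lower with a difference of -0.52 ± 0.066, with 51.9% of all genes called. In L363-CFZr cells all 10 members were higher with HFG, from 0.28 (SLC1A4) to 2.27 (SLC6A9), with 24.1% of all genes called. The AMO1 medians were 0.49 and 0.76 against 0.02 and 0.01, and those of L363-CFZr cells 1.55 and 0.89 against 0.01 and 0.01.

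NCP26 and HFG differed from each other in 2 members of each line at 6 h and in 8 at 24 h. At 6 h 2 members were called in AMO1 cells, SLC6A9 (0.36 ± 0.12) and SLC43A1 (0.50 ± 0.13), both higher with NCP26, with 5.76% of all genes called. In L363-CFZr cells 2 were called, SLC7A11 (-0.56 ± 0.15) and SLC38A2 (-0.43 ± 0.10), both lower with NCP26, with 3.5% called. The AMO1 count was 5 without NCP26 replicate 1 and 1 without NCP26 replicate 2 or 3 or HFG replicate 1, 2 or 3, and the L363-CFZr count was 1 without HFG replicate 1. The NCP26 and HFG libraries of L363-CFZr cells at 6 h are of different sets, and only SLC38A2 was called with the set as a factor. At 24 h in AMO1 cells 8 members were called, with 42.2% of all genes. SLC38A2 (0.48), SLC38A1 (0.41) and SLC7A1 (0.37) were higher with NCP26, and SLC7A11 (-0.41), SLC7A5 (-0.20), SLC1A5 (-0.46), SLC1A4 (-0.53) and SLC6A9 (-0.47) were higher with HFG. SLC3A2 gave 0.04 (95% interval -0.04 to 0.12). In L363-CFZr cells at 24 h all 8 called members were higher with NCP26, SLC7A11 most (0.94 ± 0.088), with 17.8% of all genes called, and SLC1A4 (-0.01 to 0.26) and SLC38A2 (-0.24 to 0.16) had intervals that held 0. Median differences of the members in this comparison were 0.12 and -0.08 in AMO1 cells and -0.09 and 0.46 in L363-CFZr cells, against -0.0018, -0.01, 0.02 and 0.01 over all genes.

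**Figure D3:**
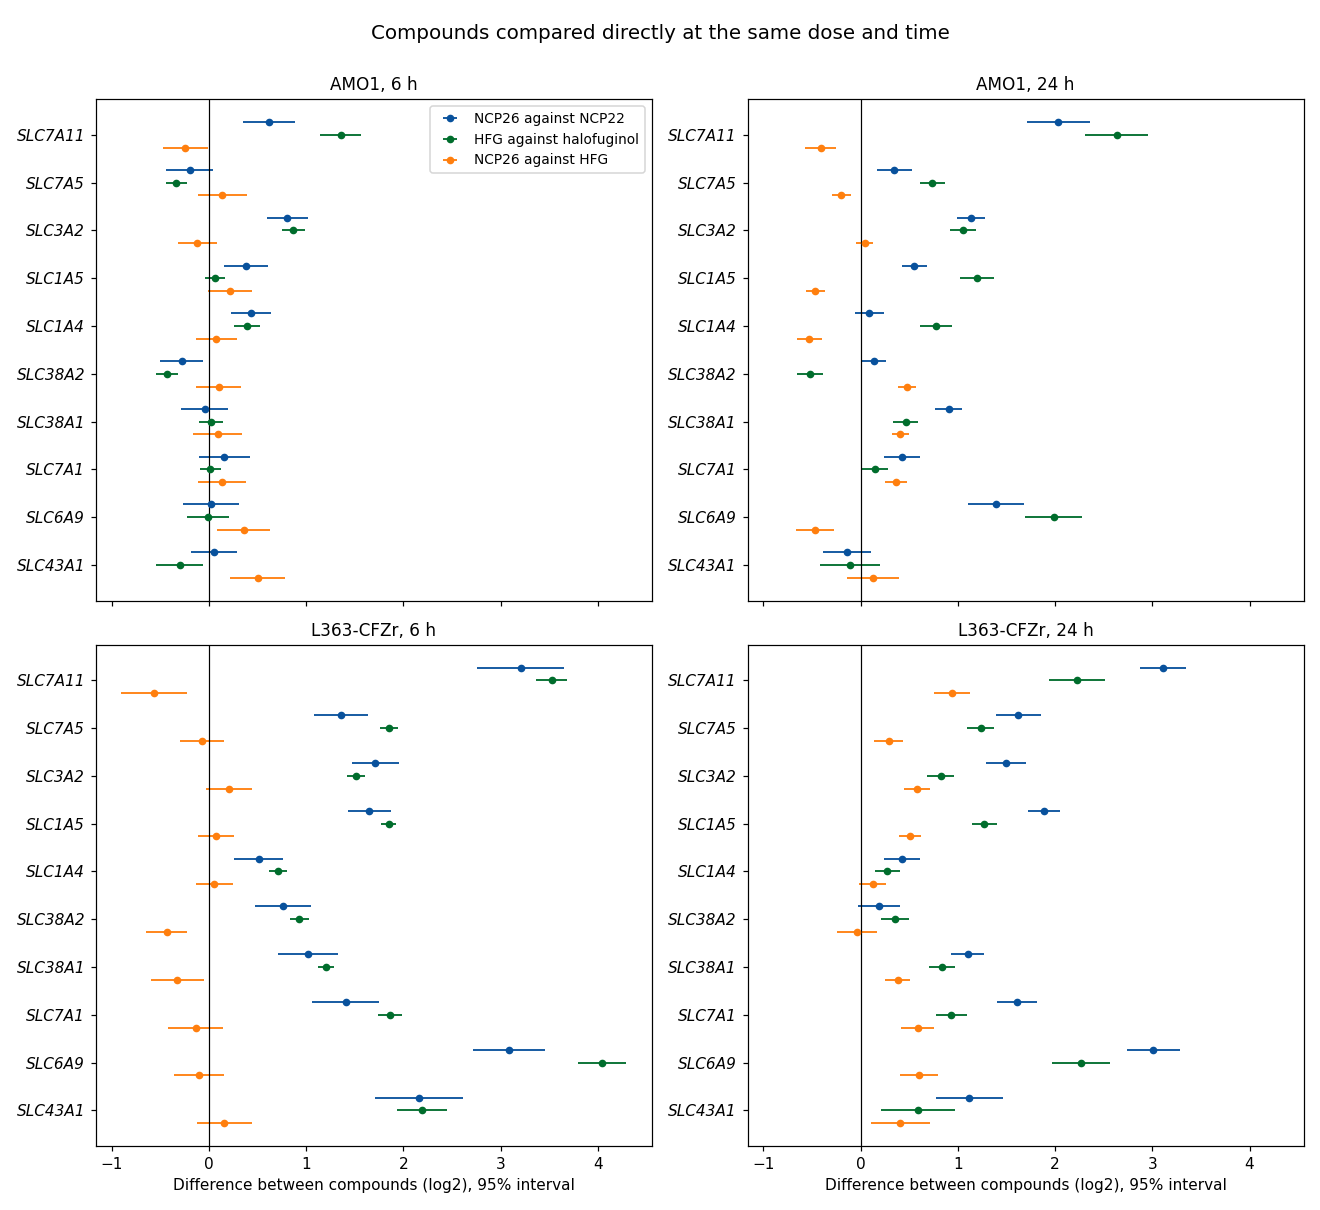
Differences between compounds at the same dose, line and time (log2, 95% intervals) for the 10 transporters, with one panel per line and time and one colour per pair. SLC7A11 differs by 0.62 between NCP26 and NCP22 in AMO1 cells at 6 h and by 3.21 in L363-CFZr cells.

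CFZ raised 8 members in AMO1 cells at 6 h, with 14.1% of all genes higher and 12.8% lower and medians of 0.52 and -0.01. SLC7A5 went from 411, 377 and 359.9 CPM to 1299.9, 1262 and 1312 CPM, a change of 1.75 ± 0.060 (SE, edgeR adjusted p = 8.51e-16), where NCP26 and HFG at this time gave 0.15 and 0.03. SLC7A11 was at 60.001, 63.4 and 62.1 CPM, a change of 2.61 ± 0.15 (SE, edgeR adjusted p = 1.49e-11), and SLC3A2 was at 706, 691 and 719 CPM, a change of 1.27 ± 0.061 (SE, edgeR adjusted p = 4.49e-13). All 3 genes of the heteromeric carriers were above every DMSO library. SLC6A9 (1.57), SLC7A1 (0.54), SLC1A5 (0.50), SLC1A4 (0.47) and SLC38A2 (0.43) rose too. SLC38A1 (0.14) and SLC43A1 (-0.04) were not called.

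At 24 h with CFZ only SLC7A11 and SLC1A4 remained higher, and SLC38A2, SLC38A1 and SLC43A1 were lower, with 13.1% of all genes higher and 14% lower and medians of 0.0031 and 0.01. SLC7A11 was at 33.6, 43.4 and 27.6 CPM against 13.6, 19.1 and 14.2 CPM, a change of 1.17 ± 0.22 (SE, edgeR adjusted p = 0.0059). SLC43A1 was at 8.40, 17.3 and 13.6 CPM against 30.8, 26.2 and 33.2 CPM, a change of -1.19 ± 0.25 (SE, edgeR adjusted p = 0.0093), and no library overlapped. Replicate 2, the CFZ library least like its group, held 397.9 CPM of SLC7A5 and 187.1 CPM of SLC7A1, whereas the others held 242.8 and 223.0 CPM of SLC7A5 and 123.5 and 122.8 CPM of SLC7A1. Without it SLC7A5 (-0.22) and SLC7A1 (-0.79) were also called lower, 7 members in all, with 23.4% of genes higher and 24.9% lower. The count was 3 without DMSO replicate 1, 2 or 3. With the set term SLC7A11 and SLC1A4 were called higher and SLC38A2, SLC38A1, SLC7A1 and SLC43A1 lower. The difference between the effects at 24 h and 6 h was tested in a fit of 12 libraries, and 9 members had a lower effect at 24 h, with 19.6% of all genes called and medians of -1.17 and -0.0034. SLC7A5 differed by -1.66 ± 0.23 (SE, edgeR adjusted p = 2.56e-04) and SLC6A9 by -1.62 ± 0.28 (SE, edgeR adjusted p = 0.0011), whereas SLC1A4 gave 0.05 (95% interval -0.22 to 0.31). The methods state overnight freezing for the 6 h samples and storage on ice for those of 24 h, so time and storage cannot be told apart. Of the CFZ libraries of 24 h, 2 also differ in set from their DMSO, whereas those of 6 h do not. Set and time are therefore partly mixed in this difference. Without CFZ replicate 2 of 24 h the count was again 9.

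**Figure D4:**
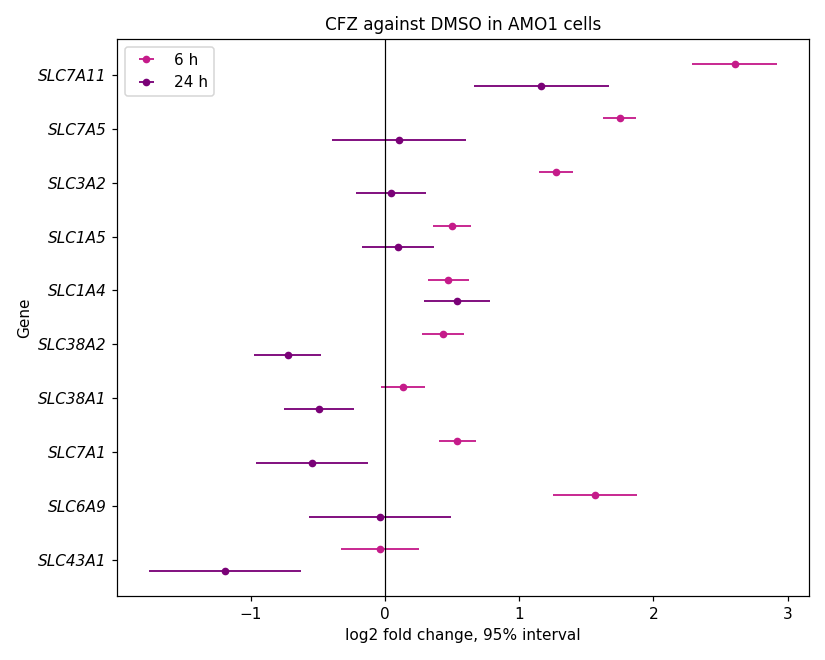
Log2 fold change of CFZ against DMSO in AMO1 cells at 6 h and 24 h for the 10 transporters, with 95% intervals from edgeR fits of 3 against 3 libraries. SLC7A5 goes from 1.75 to 0.11, SLC38A2 from 0.43 to -0.72, and SLC1A4 stays near its 6 h value.

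With DMSO the lines already differed in many genes, members among them. At 6 h 9 members were called, with 60.2% of all genes, and medians of -0.89 and -0.01. SLC43A1 (-1.72), SLC7A1 (-1.46), SLC38A2 (-1.30), SLC7A5 (-1.29), SLC38A1 (-0.99), SLC6A9 (-0.79), SLC3A2 (-0.53) and SLC1A5 (-0.34) were lower in L363-CFZr cells, and SLC1A4 was higher (0.49). SLC7A11 was at 0.50 ± 0.21, and its edgeR adjusted p narrowly missed the threshold. At 24 h 5 members were lower, SLC43A1 (-1.36), SLC3A2 (-1.21), SLC7A1 (-1.03), SLC38A2 (-0.89) and SLC38A1 (-0.56), with 39.9% of all genes called and medians of -0.65 and 0.01. Without L363-CFZr DMSO replicate 2 the count was 7, all lower, with 65% of all genes called. The count was 3 without L363-CFZr DMSO replicate 1 or 3 or AMO1 DMSO replicate 1, 2 or 3. The DMSO libraries of the lines are of different sets at 6 h and at 24 h, and with one line of each kind line, set and resistance cannot be told apart.

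NCP26 and HFG raised most members more in L363-CFZr than in AMO1 cells at 6 h. The difference of the log2 fold changes, tested in fits of 12 libraries, was called for 6 members with NCP26 and 8 with HFG, all larger in L363-CFZr cells, with 2.71% and 20.7% of all genes called. Medians of the members were 0.92 and 1.22, against 0.01 and 0.0026. The glycine carrier SLC6A9 led with 1.80 ± 0.27 (SE, edgeR adjusted p = 9.60e-04) for NCP26 and 2.28 ± 0.23 (SE, edgeR adjusted p = 2.74e-07) for HFG. SLC43A1 (1.45 and 1.79), SLC7A5 (1.42 and 1.64), SLC1A5 (1.09 and 1.24), SLC7A1 (1.05 and 1.32) and SLC38A2 (0.65 and 1.19) were called with both compounds. SLC7A11 (1.11) and SLC38A1 (1.12) were called with HFG only, and their NCP26 values were 0.78 and 0.70. SLC1A4 gave 0.16 (95% interval -0.12 to 0.44) and 0.18 (-0.0026 to 0.37), and SLC3A2 gave 0.49 (0.17 to 0.80) and 0.16 (-0.02 to 0.34), none of them called. With the GC offset the SLC3A2 values were 0.47 and 0.26, both called, and SLC38A1 with NCP26 was also called (0.72). Many of these members had a lower DMSO level in L363-CFZr cells, and its part in the difference was not tested. For HFG the DMSO and compound libraries of L363-CFZr cells differ in set, whereas those of AMO1 cells share one. For HFG, set and line therefore cannot be told apart in this difference.

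At 24 h the difference of effects was called for 2 members with NCP26, SLC1A5 (1.11 ± 0.11 SE, edgeR adjusted p = 2.76e-04) and SLC43A1 (1.03 ± 0.20 SE, edgeR adjusted p = 0.0099), with 5.41% of all genes. With HFG it was called for 3, SLC38A2 (0.69 ± 0.13 SE, edgeR adjusted p = 0.0031) and SLC43A1 (0.78 ± 0.21 SE, edgeR adjusted p = 0.025) with a larger value in L363-CFZr cells and SLC7A11 (-0.75 ± 0.23 SE, edgeR adjusted p = 0.044) with a smaller one, with 16.9% of all genes. Medians were 0.68 and 0.14, against -0.04 and -0.04. In AMO1 cells the DMSO and compound libraries of 24 h differ in set, so set and line cannot be told apart in these differences. Without L363-CFZr DMSO replicate 2 the NCP26 difference was called for 9 members, all larger in L363-CFZr cells, with 21.1% of genes, and the HFG difference for 8, of which SLC7A11 (-0.56) and SLC1A4 (-0.27) were smaller, with 33.4% of genes. With all libraries, the SLC7A11 call for HFG was lost with the GC offset (-0.70). The HFG count was 1 without L363-CFZr HFG replicate 1 or 2, AMO1 DMSO replicate 1 or 3 or AMO1 HFG replicate 2 or 3.

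**Figure D5:**
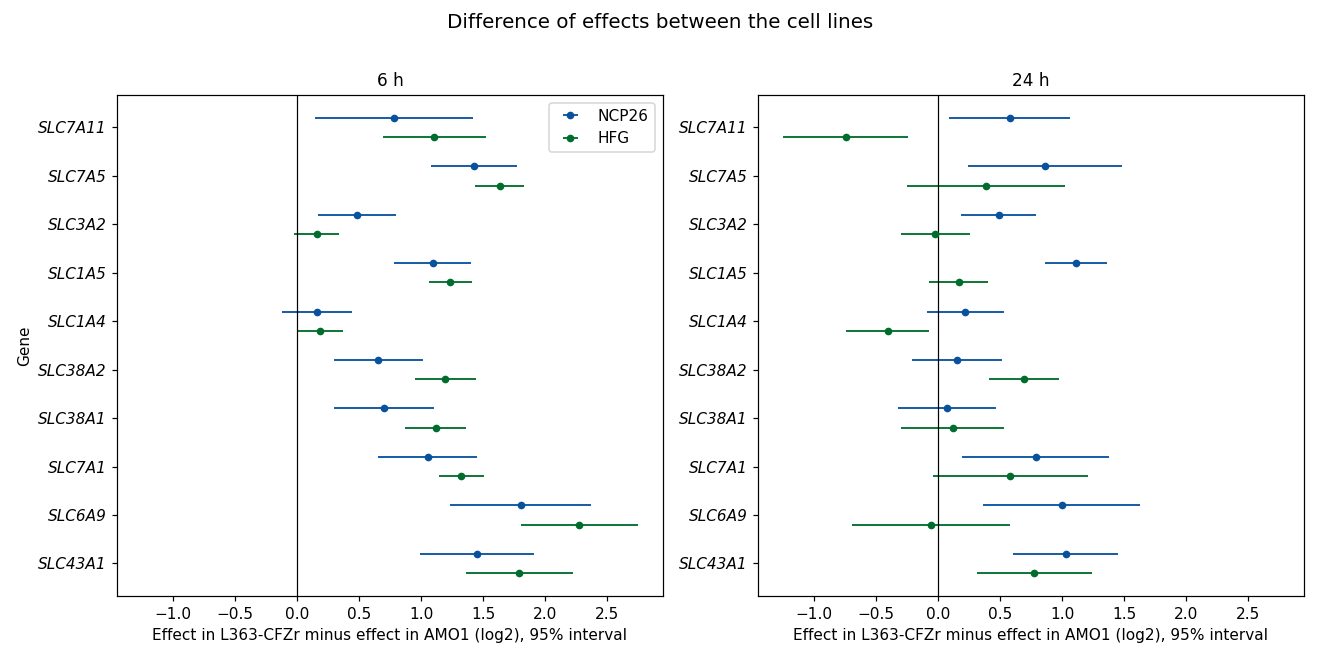
Effect in L363-CFZr cells minus effect in AMO1 cells (log2, 95% intervals) of NCP26 and HFG against DMSO at 6 h and 24 h for the 10 transporters. At 6 h SLC6A9 lies at 1.80 and 2.28 and SLC1A4 at 0.16 and 0.18, and at 24 h SLC7A11 is at -0.75 with HFG.

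Calls among other amino acid transporters were set beside the shares of all genes called in the same comparisons. Of 43 such genes 14 to 17 passed the filter in a comparison. With NCP26 at 6 h 4 rose and 3 fell of 15 in AMO1 cells (median 0.25) and 0 rose and 4 fell of 15 in L363-CFZr cells (-0.19), where 18.1% and 19.2% of all genes were called higher and lower in AMO1 cells and 9.81% and 8.99% in L363-CFZr cells. With HFG at 6 h 7 rose and 3 fell of 16 in AMO1 cells (0.35) and 1 rose and 6 fell of 15 in L363-CFZr cells (-0.26), where 27.7% of all genes were called higher and 26.6% lower in AMO1 cells and 26.9% and 27.5% in L363-CFZr cells. With so few genes tested, nothing particular to this list is read from these counts. SLC6A6, the taurine transporter, was the only one named by the rule for this list, having fallen by at least 1 on the log2 scale in 3 comparisons. It fell by 1.35 with NCP26 and 1.11 with HFG at 6 h in AMO1 cells, by 0.86 and 0.63 at 24 h, and in L363-CFZr cells by 0.65 and 0.26 at 6 h and by 1.08 with NCP26 at 24 h.

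Reference genes of the integrated stress response (ISR), such as DDIT3, ASNS and TRIB3, were set beside the members. With NCP26 8 of 10 rose and 1 fell in AMO1 cells at 6 h (median 0.83), and 9 rose and 0 fell in L363-CFZr cells (2.54). HFG gave 8 higher and 1 lower in AMO1 cells (0.64) and 9 higher in L363-CFZr cells (2.45), and CFZ at 6 h gave 10 higher (1.01). At 24 h with CFZ 2 rose and 2 fell (-0.11). NCP26 at 24 h gave 8 higher and 2 lower in AMO1 cells (1.30) and 9 higher in L363-CFZr cells (2.49). HFG at 24 h gave 8 higher and 1 lower (1.60) and 6 higher (1.86). NCP22 and halofuginol each raised 4 in AMO1 cells at 6 h (0.23 and 0.23). In L363-CFZr cells at 6 h NCP22 gave 0 calls, and halofuginol, of another set than DMSO, lowered 6 (-0.27). Neither gave a call at 24 h in either line. Of all genes, NCP26 at 6 h raised 18.1% and lowered 19.2% in AMO1 cells, and 9.81% and 8.99% in L363-CFZr cells. HFG at 6 h raised 27.7% and lowered 26.6% in AMO1 cells, and 26.9% and 27.5% in L363-CFZr cells. CFZ raised 14.1% and lowered 12.8% at 6 h, and 13.1% and 14% at 24 h. At 24 h NCP26 raised 29.8% and lowered 30.9% in AMO1 cells, and 2.71% and 4.38% in L363-CFZr cells. HFG at 24 h raised 28.5% and lowered 30.5% in AMO1 cells, and 0.592% and 0.573% in L363-CFZr cells. In either direction, NCP22 and halofuginol at 6 h gave calls for 13.5% and 3.62% in AMO1 cells and 0% and 25.8% in L363-CFZr cells. Of 8 reference genes of NRF2, such as HMOX1, GCLM and TXNRD1, 7 rose and 0 fell of 8 with CFZ at 6 h (1.29), whereas 0 rose and 5 fell of 7 with NCP26 (-0.65) and 1 rose and 5 fell with HFG (-0.59) in AMO1 cells at that time. SLC7A11, a target of both ATF4 and NRF2, rose in all 3 of these groups, by 2.61, 2.30 and 2.57. The part of ATF4 or NRF2 in these values was not tested, and no promoter window was held for SLC7A11. Elsewhere the NRF2 genes did not fall in this way. In L363-CFZr cells at 6 h, 2 rose and 2 fell of 8 with NCP26 (0.10) and with HFG (0.15). In AMO1 cells at 24 h, 2 rose and 1 fell of 7 with NCP26 (0.06), and 3 rose and 0 fell with HFG (0.15). In L363-CFZr cells at 24 h, 2 rose and 1 fell of 8 with NCP26 (0.47), and 0 rose and 1 fell with HFG (0.34). MYC, a factor that is known to bind SLC7A5 and SLC1A5, fell in AMO1 cells at 6 h by 1.08 with NCP26 and 1.21 with HFG and less, by 0.18, with CFZ. In L363-CFZr cells at 6 h MYC was at -0.20 with NCP26, not called, and fell by 0.24 with HFG. SLC1A5 rose in AMO1 cells at 6 h by 0.66 with NCP26 and 0.46 with HFG. At 24 h in AMO1 cells MYC fell by 0.88 with NCP26 and 0.63 with HFG, where SLC7A5 was at 0.43 and 0.62. With CFZ at 24 h MYC was at -0.08, and in L363-CFZr cells at 24 h at -0.16 and 0.25, none called. The part of MYC in the values of SLC7A5 and SLC1A5 was not tested.

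Across the 22 group means of log2 CPM, with the mean of each line subtracted, each of 4 members was compared with 10024 genes. The groups share DMSO libraries, lines and times, so these correlations are a description. SLC7A11 was most like CEBPB (r = 0.97), RAB39B (0.97) and ZCCHC8 (0.96), and SLC6A9 most like NIBAN1 (0.97), TRIB3 (0.97) and INHBE (0.96). TRIB3 is one of the ISR reference genes. SLC7A5 was most like SESN2 (0.90), also one of the ISR reference genes, MARS1 (0.89) and MTHFD1L (0.89). Within AMO1 and L363-CFZr cells the correlation of SLC7A5 with SESN2 was 0.79 and 0.99. SLC38A2 was most like RMND5A (0.92), HBP1 (0.90) and BCL2 (0.88). Among the members themselves, over the same 22 means, SLC1A5 and SLC6A9 were the most alike (0.96) and SLC1A4 and SLC38A2 the least (-0.23).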

How the data were processed

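RNA of 66 libraries of 2 myeloma lines was counted. The authors deposited counts, whole numbers for 20167 Ensembl genes, made with kallisto (version not given in the sources used here). The methods name GRCh38 and the submitters' processing notes hg19, and the counts carry no coordinates. Groups came from the sample labels. The members and gene lists (other amino acid transporters, reference genes of the integrated stress response and of NRF2, MYC, and cell type markers) were chosen with earlier results of these data known.

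Genes passing filterByExpr (minimum count 10, minimum total 15) were fitted on TMM-scaled counts with edgeR 4.0.16 (glmQLFit and glmQLFTest, R 4.3.3, limma 3.58.1), using only the groups compared, and p-values were adjusted by Benjamini-Hochberg over all genes, and over all 12 compound pairs together, at 0.05. Standard errors were derived from each log2 fold change and its F statistic. CPM used TMM library sizes. Of the gene identifiers 95.7% were found in GENCODE v44, which gave positions, lengths and shared 31-mers. Promoter sequences are from RefSeq (GRCh38.p14). Named were the 10 members, other transporters called in at least 3 of the 8 comparisons of NCP26 or HFG with DMSO with an absolute log2 change of at least 1 in each, and the 3 genes most correlated with 4 members (mean of at least 5 CPM). Alternatives were DESeq2 1.42.0 (Wald test and size factors), no filter, a replicate block, a GC content offset (lowess span 0.3), all groups in one fit, the set of sample numbers as a factor, plain library totals, and each library left out.

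In simulated counts with 200 changed genes, 93 of 100 genes changed 2-fold were recovered for NCP26 against DMSO at 6 h in AMO1 cells (10535 genes), 97 of 100 for HFG against halofuginol at 24 h in L363-CFZr cells (10339 genes) and 72 of 100 for the NCP26 difference between lines at 6 h (10801 genes). All 100 changed 4-fold were recovered in each, and 7.66%, 9.63% and 7.53% of calls were false. These false shares lie above the 0.05 that the threshold aims at. Changes below 2-fold were not simulated, so the runs do not show how well the smaller changes of many members are recovered. The 66 pairs of replicates had correlations of 0.938 to 0.992 and differed by 1.30 to 34.1 times the Poisson noise, and 0 pairs were identical. Python 3.11.15 with numpy 2.4.6, pandas 2.3.3 and matplotlib 3.10.9 made the tables and plots.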

Additional observations from a re-analysis of the deposited data

Results flagged for a closer look

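The effects below differed between lines or times by an interaction term in edgeR fits of 12 libraries, with p-values adjusted over all genes. Values are log2 differences of fold changes against DMSO. For HFG at 6 h and for both compounds at 24 h, the DMSO and compound libraries of a line differ in set. Set and line cannot be told apart there. For CFZ, 2 of the libraries of 24 h differ in set from their DMSO and those of 6 h do not, so set and time are partly mixed.

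For NCP26 at 6 h the effect in L363-CFZr cells minus that in AMO1 cells was 1.42 for SLC7A5, 1.09 for SLC1A5, 0.65 for SLC38A2, 1.05 for SLC7A1, 1.80 for SLC6A9 and 1.45 for SLC43A1, with edgeR adjusted p from 8.26e-05 (SLC7A5) to 0.0492 (SLC38A2). For HFG at 6 h it was 1.11 for SLC7A11, 1.64 for SLC7A5, 1.24 for SLC1A5, 1.19 for SLC38A2, 1.12 for SLC38A1, 1.32 for SLC7A1, 2.28 for SLC6A9 and 1.79 for SLC43A1, with edgeR adjusted p from 6.82e-11 (SLC7A5) to 0.000406 (SLC7A11).

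At 24 h the difference for NCP26 was 1.11 for SLC1A5 and 1.03 for SLC43A1 (edgeR adjusted p = 0.000276 and 0.00985). For HFG it was -0.75 for SLC7A11, 0.69 for SLC38A2 and 0.78 for SLC43A1 (edgeR adjusted p = 0.0441, 0.00305 and 0.0253).

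The CFZ effect at 24 h minus that at 6 h in AMO1 cells was -1.46 for SLC7A11, -1.66 for SLC7A5, -1.24 for SLC3A2, -0.42 for SLC1A5, -1.17 for SLC38A2, -0.64 for SLC38A1, -1.10 for SLC7A1, -1.62 for SLC6A9 and -1.17 for SLC43A1, with edgeR adjusted p from 3.02e-05 (SLC3A2) to 0.0389 (SLC1A5).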

How the results depend on the processing

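In one fit of all groups 5 members were called for AMO1 NCP22 and 5 for halofuginol at 6 h, 0 for L363-CFZr halofuginol at 6 h, 9 for L363-CFZr HFG at 24 h, 8 between lines in DMSO at 24 h, and 6 and 5 for the line differences of NCP26 and HFG at 24 h. DESeq2's Wald test called 3 for L363-CFZr halofuginol at 6 h, 1 for AMO1 NCP26 against HFG at 6 h and 4 for the line difference of NCP26 at 24 h. The GC offset and the set term each gave 0 for L363-CFZr halofuginol at 6 h and 1 for L363-CFZr NCP26 against HFG at 6 h. The replicate block gave 4 for L363-CFZr NCP26 and 2 for HFG at 24 h and 1 for AMO1 NCP26 against HFG at 6 h, where replicate numbers are only names: same-numbered libraries correlated by -0.32 to 0.27, in 0 of 32 comparisons was every pair above 0.1, and in 0 was every library most like its own number. The cause of these shifts was not tested.

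Leaving out each library in turn moved these counts of called members by over 1.5 times, with lowest and highest values of 3 to 7 for AMO1 CFZ against DMSO 24 h, 0 to 1 for AMO1 NCP22 against DMSO 24 h, 2 to 5 for L363-CFZr halofuginol against DMSO 6 h, 4 to 9 for L363-CFZr NCP26 against DMSO 24 h, 0 to 10 for L363-CFZr HFG against DMSO 24 h, 1 to 5 for AMO1 NCP26 against HFG 6 h, 1 to 3 for L363-CFZr NCP26 against HFG 6 h, 3 to 7 for L363-CFZr against AMO1 DMSO 24 h, 2 to 9 for NCP26 effect, L363-CFZr minus AMO1 24 h, 1 to 8 for HFG effect, L363-CFZr minus AMO1 24 h. With the GC offset SLC38A2 turned to -0.30 (AMO1 HFG, 6 h) and -0.14 (AMO1 NCP26, 24 h), both called lower, and for L363-CFZr halofuginol at 6 h SLC7A5 to 0.052, SLC1A5 to 0.079 and SLC38A2 to -0.015. SLC7A5 with CFZ at 24 h ran from -0.22 to 0.27 with a library left out. Of 370 member values, the call, and the direction of any called value, were kept by 367 with DESeq2 size factors, 357 without the filter, 356 with the replicate block, 354 with DESeq2, 343 with the GC offset and 330 in one fit of all groups, by 87 of 100 with the set term, and by 2336 of 2520 with a library left out. A value called in neither fit was counted as kept even where its sign changed. With plain library totals 148 of 220 mean levels moved by less than 1 SD. The set term could not be fitted across lines and times, or where all libraries of a line and time shared a set. Elsewhere it rested on the only group with libraries of different sets. These were the CFZ libraries of AMO1 cells at 24 h and the NCP22 libraries of L363-CFZr cells at 6 h. SLC7A11, SLC6A9 and SLC43A1 had the lowest CPM in DMSO libraries, which limits their precision.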
